A study of Mus musculus with 4 samples.

Results

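The 10 ventral neural tube progenitor factors *Olig1*, *Olig2*, *Nkx6-1*, *Nkx6-2*, *Nkx2-2*, *Nkx2-9*, *Pax6*, *Irx3*, *Dbx1* and *Dbx2* were followed in cervical motor neuron (MN) cultures made from wild-type (WT) and *Patz1* KO mouse embryonic stem cells (mESCs). The genes were listed by symbol for their role in dividing the ventral neural tube, by a rule that uses no counts but was written with earlier results of these data known, and all 10 had a row among the 23420 genes of the deposited tables. RNA-seq covered 2 WT and 2 *Patz1* KO cultures of the E14 line, a male mouse ESC line, with the genotype of the KO given as *Patz1* -/-. The KO lines came from Cas9 with a single guide RNA against *Patz1*, a gene for a zinc finger protein that binds G-rich DNA, and the labels do not say which clone stands behind each KO library. All 4 cultures were grown as embryoid bodies and received 1 μM all-trans-retinoic acid and 0.5 μM smoothened agonist (SAG) from day 2 of differentiation, so no culture lacked these agents. The sample titles speak of ESCs, while the cell type and source labels give MNs, and the MN genes described below were abundant in every library. By the study's methods a biological replicate was an independent differentiation, the labels themselves do not say it, and the p-values measure only the spread between these libraries.

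In the embryo, the floor plate and notochord secrete Sonic hedgehog, which spreads dorsally and sets up progenitor domains named, from ventral to dorsal, p3, pMN, p2, p1 and p0. Class II factors are switched on by the signal and class I factors are switched off by it, and pairs of the classes repress each other at domain borders, as *Pax6* and *Nkx2-2* do, or *Irx3* and *Olig2*. *Nkx2-2* and *Nkx2-9* mark p3, *Olig2* marks pMN, *Nkx6-1* spans p3 to p2, and *Dbx1* marks p0. SAG is an agonist of Smoothened, the transducer of the signal in the receiving cell, and retinoic acid is used in such protocols to give neural cells a hindbrain to cervical character.

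**Figure D1:**
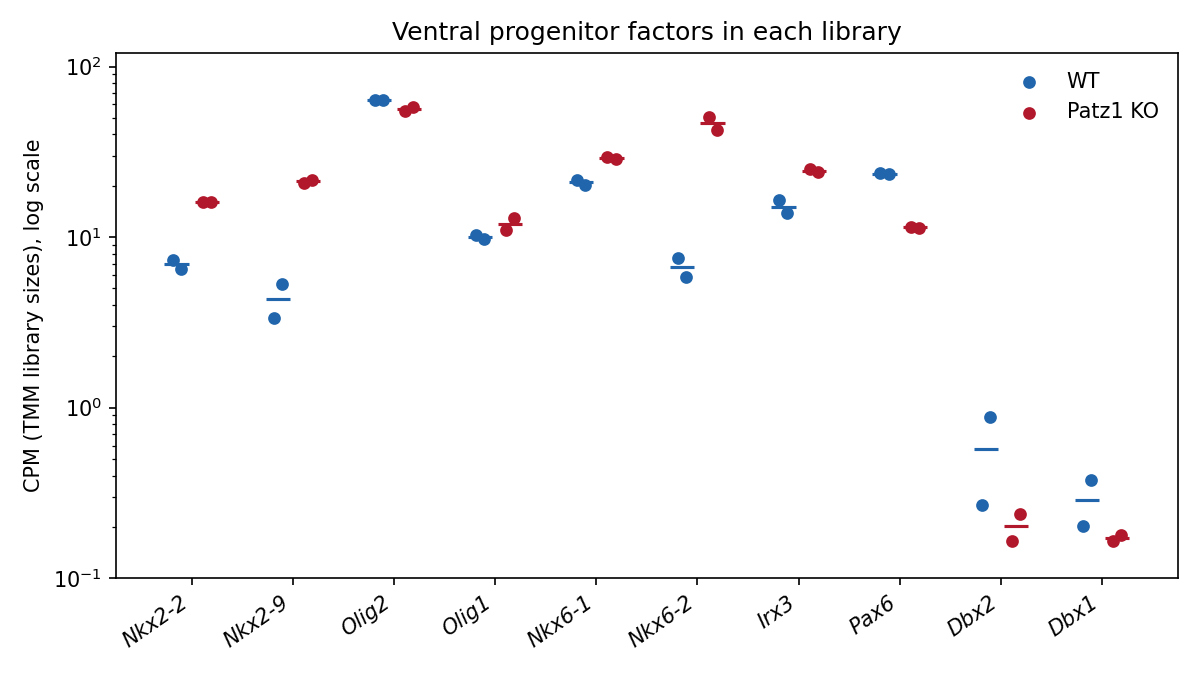
Level of each of the 10 progenitor factors in each library, in CPM, which scales counts to a common library size (log axis). Points are single libraries of WT and *Patz1* KO cultures and short lines their means. *Nkx6-2* moved from 5.85 to 7.51 CPM in WT to 42.4 to 50.9 CPM in *Patz1* KO, *Pax6* lay near 23.5 CPM in WT and 11.4 CPM in *Patz1* KO, and *Dbx1* and *Dbx2* stayed below 1 CPM.

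Depth was 14769104 and 15728158 total counts for WT, against 23881522 and 17402342 for *Patz1* KO, so both KO libraries were the deeper ones. *Patz1* itself was counted 1363 and 1499 times in WT, against 1154 and 714 times in *Patz1* KO. Its level was 92.8 ± 1.96 CPM (SD, n = 2) in WT cultures, against 45.1 ± 3.56 CPM in KO cultures, and its log2 fold change was -1.04 (adjusted p = 1.09e-07). The fall went in the direction of the label, and gene-level counts do not show whether the remaining transcript carries the edit. Levels are given as CPM with library sizes scaled by the trimmed mean of M values (TMM), and fold changes are *Patz1* KO over WT from the quasi-likelihood F test of edgeR, adjusted by Benjamini-Hochberg over the 14269 genes that passed the filter on low counts and called at an adjusted p below 0.05. The 95% intervals are not adjusted. Of all genes tested, 24.1% were called higher in *Patz1* KO, 23.8% lower and 47.9% in either direction, so a call by itself was common in these data.

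Of the 10 factors, 5 rose in *Patz1* KO MNs (*Nkx6-2*, *Nkx2-9*, *Nkx2-2*, *Irx3* and *Nkx6-1*), 1 fell (*Pax6*), 2 were not called (*Olig1* and *Olig2*) and 2 did not pass the filter (*Dbx1* and *Dbx2*). The 6 calls among 8 tested factors stand beside the 47.9% of all genes. The median log2 fold change of the 8 was 0.59, against -0.0014 over all genes tested. In all 8 tested factors the WT and KO libraries did not overlap in CPM, as was the case in 74.2% of the genes tested. The untested *Dbx1* and *Dbx2* did not overlap in CPM either, but their raw counts, 3 to 14 a library, did. The members' CPM summed to 155 and 149 in WT and to 220 and 216 in *Patz1* KO.

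Promoter sequences are shown for the 2 factors that rose the most and for the factor that fell, because the protein removed here binds G-rich DNA. Each is the 250 bases before a transcription start site in RefSeq on GRCm38.p6, written 5′ to 3′ on the gene's strand in lower case, and capitals mark GGGNGGG on either strand, overlapping matches counted. The first lies at chr7:139582798-139583047 on the minus strand (*Nkx6-2*), the second at chr12:56613285-56613534 on the minus strand (*Nkx2-9*) and the third at chr2:105668646-105668895 on the plus strand (the first *Pax6* start site), and none of the 3 windows held bases of an annotated exon.
Nkx6-2: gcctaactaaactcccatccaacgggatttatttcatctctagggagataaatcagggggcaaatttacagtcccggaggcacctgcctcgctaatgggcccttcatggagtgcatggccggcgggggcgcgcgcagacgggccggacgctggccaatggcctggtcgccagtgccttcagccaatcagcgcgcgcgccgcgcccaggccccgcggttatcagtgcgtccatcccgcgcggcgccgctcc
Nkx2-9: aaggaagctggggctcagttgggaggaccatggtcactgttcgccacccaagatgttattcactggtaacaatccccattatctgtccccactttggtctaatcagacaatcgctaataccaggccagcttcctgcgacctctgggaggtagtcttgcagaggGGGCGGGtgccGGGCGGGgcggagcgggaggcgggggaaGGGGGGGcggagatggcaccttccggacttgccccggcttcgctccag
Pax6: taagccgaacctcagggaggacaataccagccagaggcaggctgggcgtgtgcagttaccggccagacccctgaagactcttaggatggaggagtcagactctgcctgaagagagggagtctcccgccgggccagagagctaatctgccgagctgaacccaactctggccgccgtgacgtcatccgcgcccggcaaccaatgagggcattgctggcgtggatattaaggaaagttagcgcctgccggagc

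The *Nkx6-2* window held 0 matches to GGGNGGG with a GC content of 65.2%, the *Nkx2-9* window 3 matches with 61.6% and the *Pax6* window 0 matches with 60.8%. RefSeq promoters were found for 9 of the 10 factors, with 2 windows for *Pax6* and 1 for each other factor. Of the 9 factors, 6 held the motif in a window. The share over all 32851 mouse promoter windows of this length, counted per window and not per gene, was 44.8%. The *Nkx2-2* window had 5 matches and that of *Olig2* 2, and *Irx3*, *Dbx1* and *Dbx2* had 1 each. Unlike the windows shown, these held bases of annotated exons, all 250 in *Irx3* and *Dbx2*, 93 in *Olig2*, 53 in *Nkx2-2* and 14 in *Dbx1*. The GLI motif TGGGTGGTC, the site of the transcription factors of Hedgehog signalling, was found for 0 of the 9 factors and in 0.225% of all windows. TATAAA was found in *Olig2* and *Dbx1* and in 12.4% of all windows. A match of letters is a description of the window, and neither a match nor its absence shows whether the factor binds there.

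The p3 genes came first in the ventral order, and both rose. *Nkx2-2*, the homeobox gene that sets p3 apart from pMN, was counted 110 and 104 times in WT, against 391 and 271 times in *Patz1* KO, or 7.38 and 6.54 against 16.1 and 16.1 CPM. The KO libraries lay close together and both were well above WT. The log2 fold change was 1.21 (SE 0.154, 95% interval 0.89 to 1.54, adjusted p = 4.84e-06), a 2.32-fold difference, and 537 of the 14269 genes had a larger one. *Nkx2-9*, its neighbour in p3 that is also found in the floor plate, was counted 50 and 85 times in WT, against 506 and 364 times in *Patz1* KO. Its CPM were 3.35 and 5.34 in WT, the widest relative spread within a genotype among the factors called, and 20.9 and 21.7 in *Patz1* KO. The log2 fold change was 2.28 (SE 0.181, interval 1.90 to 2.66, adjusted p = 1.94e-08) and ranged from 1.99 to 2.67 as each library was left out. Counts of *Nkx2-9* per count of *Nkx2-2* were 0.455 and 0.817 in WT and 1.29 and 1.34 in *Patz1* KO, so the balance within a library, which does not depend on the scaling of libraries, shifted toward *Nkx2-9*.

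The pMN pair moved little. *Olig2*, the basic helix-loop-helix factor of MN progenitors, was counted 949 and 1007 times in WT, against 1338 and 974 times in *Patz1* KO, or 63.7 and 63.3 against 55.2 and 58.0 CPM. The groups did not overlap, but the difference was small, with a log2 fold change of -0.17 (SE 0.0925, interval -0.36 to 0.028, adjusted p = 0.148). *Olig1*, which lies 41095 bases from *Olig2* on chromosome 16 and acts mainly in oligodendrocyte maturation, was counted 153 and 156 times in WT, against 267 and 216 times in *Patz1* KO. Its CPM were 10.3 and 9.80 in WT and 11.01 and 12.9 in *Patz1* KO, with a log2 fold change of 0.24 (SE 0.157, interval -0.086 to 0.57, adjusted p = 0.212). Neither change passed the test. The intervals still allow a change of up to 0.36 below WT for *Olig2* and 0.57 above it for *Olig1* on the log2 scale. Counts of *Olig1* per count of *Olig2* were 0.161 and 0.155 in WT, against 0.200 and 0.222 in *Patz1* KO, a shift of 0.41 in log2 that was not tested. Counts of *Olig2* per count of *Nkx2-2*, the pair at the pMN to p3 border, were 8.63 and 9.68 in WT and 3.42 and 3.59 in *Patz1* KO.

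The 2 Nkx6 genes among the factors rose by unequal amounts. *Nkx6-1*, a repressor found from p3 to p2 that is needed for MN formation, was counted 324 and 322 times in WT, against 715 and 481 times in *Patz1* KO, or 21.7 and 20.2 against 29.5 and 28.7 CPM. The log2 fold change was 0.47 (SE 0.113, interval 0.23 to 0.71, adjusted p = 0.00218), a 1.39-fold difference. *Nkx6-2*, whose domain in the mouse reaches further dorsally and which is also used by oligodendrocytes, was counted 112 and 93 times in WT, against 1234 and 711 times in *Patz1* KO. Its CPM were 7.51 and 5.85 in WT and 50.9 and 42.4 in *Patz1* KO. The KO libraries were several times above WT, with a log2 fold change of 2.81 (SE 0.145, interval 2.50 to 3.11, adjusted p = 8.43e-11), 7.01-fold, and 34 of the 14269 genes had a larger one. This was the member with the highest log2 fold change. Counts of *Nkx6-2* per count of *Nkx6-1* were 0.346 and 0.289 in WT, against 1.73 and 1.48 in *Patz1* KO, a 5.05-fold difference, and per kilobase of exon the ratio was 0.569 and 0.475 against 2.84 and 2.43, so the order of the pair turned over between the genotypes. Counts of *Nkx6-2* per count of *Olig2* went from 0.118 and 0.0924 to 0.922 and 0.730.

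**Figure D2:**
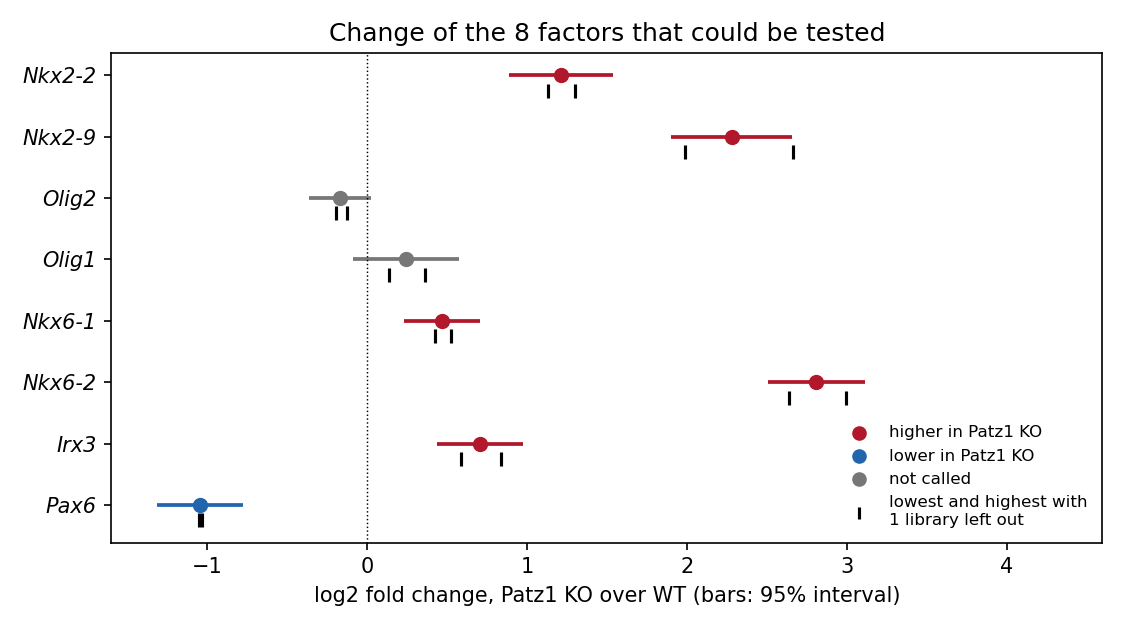
Log2 fold change (*Patz1* KO over WT) of the 8 factors that passed the filter, with 95% intervals and, as ticks below, the lowest and highest values with 1 library left out. *Nkx6-2* (2.81) and *Nkx2-9* (2.28) had the largest values and *Pax6* (-1.05) was the only one called below 0, and the intervals of *Olig1* and *Olig2* contain 0.

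The class I factors did not move one way. *Pax6*, the paired-box gene that is reduced in the most ventral domains, was counted 353 and 372 times in WT, against 278 and 190 times in *Patz1* KO, or 23.7 and 23.4 against 11.5 and 11.3 CPM. Both libraries of a genotype lay close together, and the KO values were far below both WT values. The log2 fold change was -1.05 (SE 0.127, interval -1.31 to -0.78, adjusted p = 2.91e-06), so *Pax6* was 2.06-fold lower, and 1041 genes had a smaller log2 fold change. *Irx3*, the Iroquois factor that borders pMN from the dorsal side, rose from 16.4 and 13.8 CPM (245 and 219 counts) to 24.98 and 24.1 CPM (606 and 405 counts). Its log2 fold change was 0.70 (SE 0.128, interval 0.44 to 0.97, adjusted p = 0.000201). Counts of *Pax6* per count of *Nkx2-2* were 3.21 and 3.58 in WT, against 0.711 and 0.701 in *Patz1* KO, and counts of *Irx3* per count of *Olig2* were 0.258 and 0.217 in WT and 0.453 and 0.416 in *Patz1* KO. In the first pair the class I count fell behind the class II count, and in the second it gained on it. Counts of *Pax6* per count of *Olig2* were 0.372 and 0.369 in WT and 0.208 and 0.195 in *Patz1* KO.

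The Dbx genes of the intermediate neural tube were close to the limit of detection. *Dbx1*, the determinant of p0, was counted 3 and 6 times in WT, against 4 and 3 times in *Patz1* KO. *Dbx2*, which reaches over p1 and p0, was counted 4 and 14 times in WT, against 4 and 4 times in *Patz1* KO. All but 2 of these 8 values were at or within 1 count of a floor of 3 counts per library. Without the filter the log2 fold changes were -0.72 for *Dbx1* (adjusted p = 0.626) and -1.51 for *Dbx2* (adjusted p = 0.143). In the alternatives that tested *Dbx2* its log2 fold change ran from -2.13 to -1.26 and its adjusted p from 0.0664 to 0.348, so a fall was not shown, and counts this low leave little room to show one.

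By class, 4 of the 5 class II factors (*Olig2*, *Nkx6-1*, *Nkx6-2*, *Nkx2-2* and *Nkx2-9*) rose and 0 fell, with a median log2 fold change of 1.21. These calls stand beside 24.1% of all genes tested called higher and 23.8% called lower. *Olig1* was placed in neither class. Of the 4 class I factors, 2 were tested, and 1 rose and 1 fell. A stricter test, for a log2 fold change beyond 1 in either direction, called 5.03% of all genes and kept *Nkx6-2* and *Nkx2-9* among the 10 factors. In these bulk cultures, more cells of a domain and more RNA per cell cannot be told apart.

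**Figure D3:**
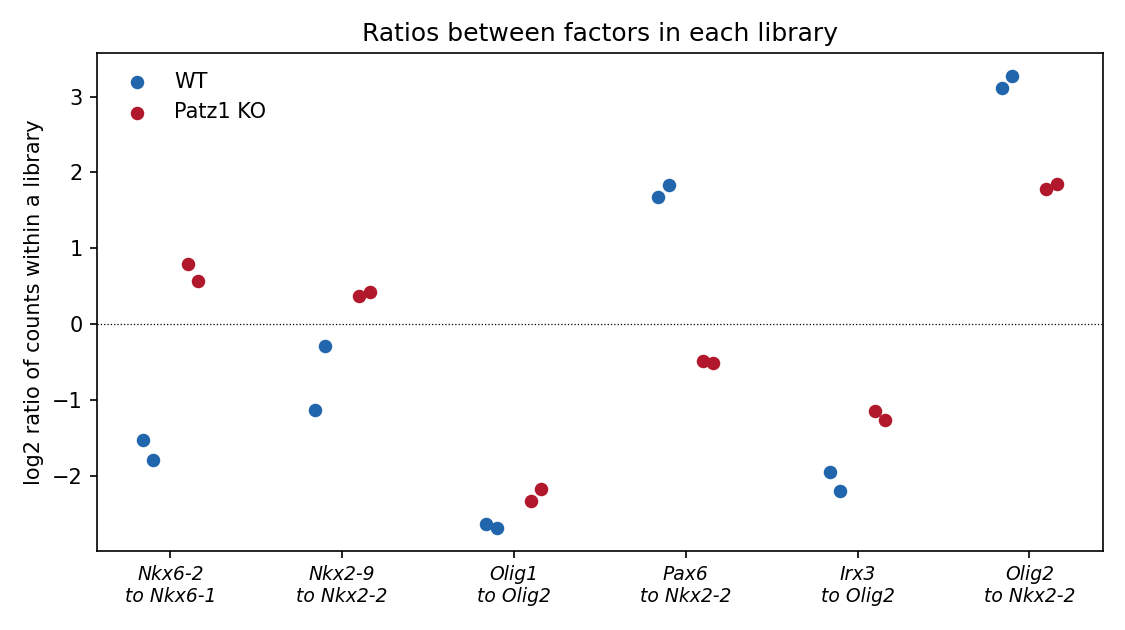
Log2 ratio of the counts of paired factors within each library, for WT and *Patz1* KO. Points are single libraries, and a ratio within a library does not depend on its scaling. As plain ratios, *Nkx6-2* to *Nkx6-1* was 0.289 to 0.346 in WT, against 1.48 to 1.73 in *Patz1* KO, and *Pax6* to *Nkx2-2* was 3.21 to 3.58 in WT and 0.701 to 0.711 in *Patz1* KO.

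Levels between genes were compared per kilobase of exon. In WT the order was *Olig2* at 25.1 CPM per kb, *Nkx6-1* at 6.69, *Irx3* at 5.47, *Olig1* at 4.64, *Nkx6-2* at 3.50 ± 0.619, *Nkx2-9* at 3.44 ± 1.11, *Nkx2-2* at 2.42, *Pax6* at 2.01, *Dbx2* at 0.166 and *Dbx1* at 0.138. The libraries of *Nkx6-2* and *Nkx2-9* overlapped, as did those of *Dbx2* and *Dbx1*, so these neighbours are not ordered. In *Patz1* KO *Nkx6-2* came first with 24.4 ± 3.15 CPM per kb (SD, n = 2), overlapping *Olig2* at 22.4 ± 0.804, and *Nkx2-9* followed with 16.8, *Nkx6-1* with 9.26, *Irx3* with 8.89, *Nkx2-2* with 5.61, *Olig1* with 5.52 and *Pax6* with 0.974. *Nkx2-2* and *Olig1* overlapped. The place of *Pax6* rests on the length used, since its longest transcript gives 5.32 CPM per kb in WT, rank 4 instead of 8, and 2.57 in *Patz1* KO.

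**Figure D4:**
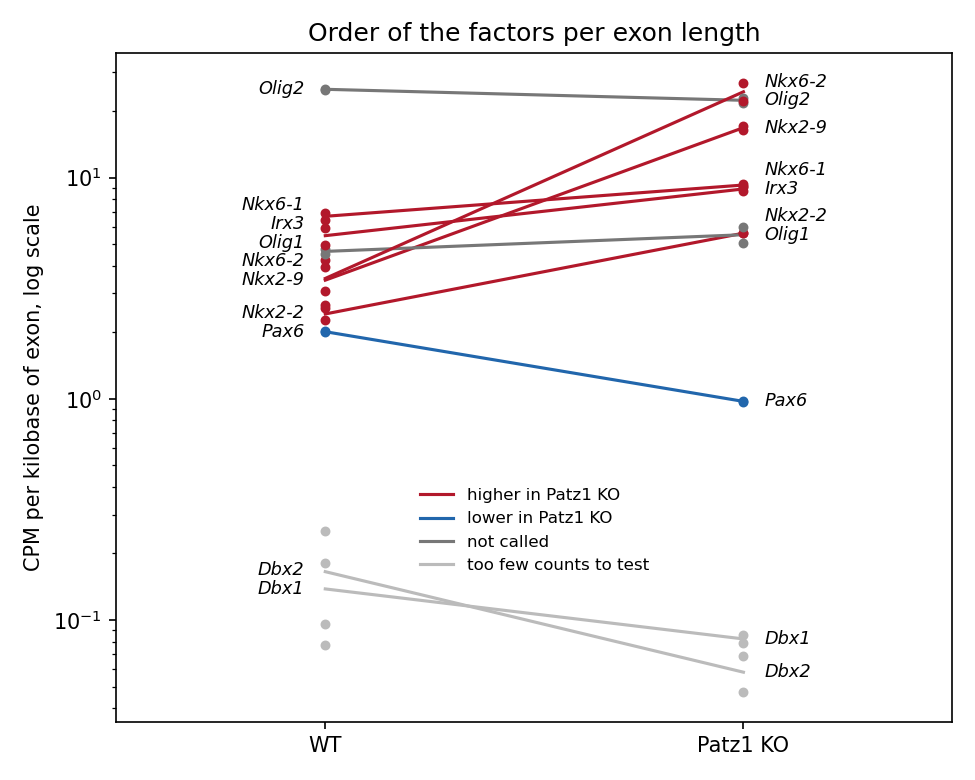
Level of each factor per kilobase of exon (CPM per kb, log axis) in WT and *Patz1* KO, one line a gene joining the means of 2 libraries. *Nkx6-2* rose from 3.50 to 24.4 and *Nkx2-9* from 3.44 to 16.8 CPM per kb, and *Olig2* lay at 25.1 and 22.4.

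Positions of the 10 factors are those of GENCODE M21 on GRCm38. *Olig2* (chr16:91225457-91228677) and *Olig1* (chr16:91269772-91271933) are on the plus strand, as is *Pax6* (chr2:105668900-105697364). *Nkx6-2* (chr7:139579376-139582797), *Dbx1* (chr7:49631499-49636849), *Nkx6-1* (chr5:101658139-101664996), *Nkx2-2* (chr2:147177546-147194243), *Nkx2-9* (chr12:56611389-56613284), *Irx3* (chr8:91798525-91802067) and *Dbx2* (chr15:95623563-95655960) are on the minus strand. Exons of 4 of them overlap a gene on the opposite strand, *Olig1* by 157 bases, *Nkx6-2* by 246, *Nkx2-2* by 278 and *Irx3* by 124, and the strand setting of the counting is not given in the sources used here. *Inpp5a*, which overlaps *Nkx6-2*, was counted 263 and 216 times in WT, against 598 and 393 times in *Patz1* KO (log2 fold change 0.63, adjusted p = 0.000954), more counts than *Nkx6-2* in both WT libraries and fewer in both KO libraries. The part of opposite-strand reads in these counts was not tested. The transcript opposite *Nkx2-2* had 0, 2, 4 and 0 counts.

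The ligand and most of its readouts fell while the p3 factors rose. *Shh*, the ligand, was at 37.4 and 39.5 CPM in WT and 4.86 and 4.77 CPM in *Patz1* KO (log2 fold change -2.99, adjusted p = 1.56e-11), and *Foxa2*, a floor plate factor, was at 28.0 and 28.3 against 5.15 and 5.96 CPM (log2 fold change -2.35). Of the 9 tested floor plate genes 8 fell, with a median of -2.35, and the 1 that rose was *Nkx2-9*, itself one of the 10 factors. The falls were unequal, and *Sulf1* (-0.79), *Ntn1* (-0.48) and *Spon1* (-0.31), named after their values were seen, fell the least. Among the 4 Hedgehog response genes 3 fell, *Hhip* by 1.06 and *Gli1* by 0.68 on the log2 scale (adjusted p = 0.00671 for *Gli1*). *Ptch1*, both the receptor and a target of the pathway, was not called (178.9 and 178.3 against 186.8 and 168.2 CPM, log2 fold change -0.0083, interval -0.19 to 0.18, adjusted p = 0.948). Of 9 Hedgehog components 2 rose and 4 fell, with *Gli3*, which acts mainly as a repressor, at -3.12 and *Gas1*, a coreceptor, at 1.10. The part of floor plate cells in the results for the 10 factors was not tested. Of 8 tested endoderm markers 0 rose and 6 fell, with a median log2 fold change of -3.02. The part of endoderm cells in the falls of *Shh*, *Foxa2* and the other floor plate genes was not tested either.

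**Figure D5:**
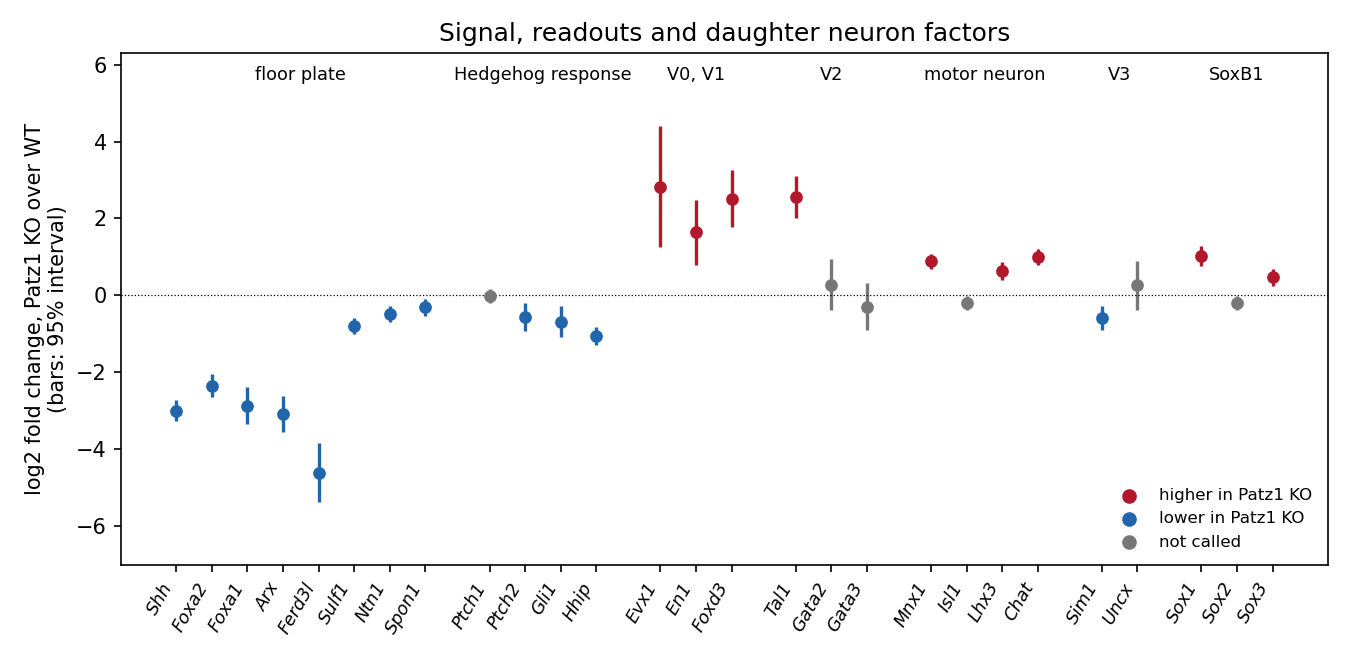
Log2 fold change (*Patz1* KO over WT) of factors of the floor plate, Hedgehog response, daughter neurons and SoxB1 group, points with 95% intervals, colored by call. The 8 floor plate genes shown lie between -4.60 (*Ferd3l*) and -0.31 (*Spon1*), *Mnx1* (0.88) and *Lhx3* (0.63) above 0, and *Sim1* (-0.58) below 0, and the value of *Evx1* rests on 0 and 4 counts in WT.

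The daughter neurons of each domain gave further readouts. For MNs, the product of pMN, 7 of 8 genes rose and 0 fell (median 0.74, summed CPM of 612.8 and 571 against 928.99 and 845.6), with *Mnx1*, which fixes MN identity, at 0.88 and *Lhx3* at 0.63, while *Isl1*, another MN factor, was not called at -0.19 (interval -0.37 to -0.0094, adjusted p = 0.0768). For V3 neurons of p3, 1 of 2 genes fell and 0 rose. *Sim1*, a marker of these neurons, fell by 0.58 on the log2 scale, from 13.8 and 13.4 to 9.11 and 9.06 CPM (adjusted p = 0.00374), and *Uncx* was not called at 0.26 (adjusted p = 0.494). For V2 neurons *Tal1* rose by 2.56 in log2, while *Gata3* was not called at -0.29 (interval -0.89 to 0.31). *En1*, the V1 gene, was counted 10 and 9 times in WT, against 43 and 36 times in *Patz1* KO (log2 fold change 1.64, adjusted p = 0.00246), and *Foxd3*, also a neural crest gene, was 2.51 higher on the log2 scale. *Evx1*, the V0 gene downstream of *Dbx1*, was counted 0 and 4 times in WT, against 29 and 11 times in *Patz1* KO (adjusted p = 0.00457), while *Dbx1* stayed at 3 to 6 counts in every library.

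Among 17 relatives of the factors within their families, 7 were tested, and 4 rose and 1 fell, with a median of 0.44. *Irx1*, from the Iroquois family of *Irx3*, was at 40.1 and 37.3 CPM in WT and 51.8 and 67.2 CPM in *Patz1* KO (log2 fold change 0.62). *Pax8*, a relative of *Pax6*, was counted 1 and 2 times in WT, against 24 and 20 times in *Patz1* KO. *Irx2* and *Irx5*, named after their values were seen, rose by 0.44 and 0.54, and *Irx6*, likewise, fell by 1.69 on the log2 scale. Of 20 genes of the intermediate and dorsal neural tube 6 were tested, 0 rose and 3 fell, with a median of -0.60, and the 2 with the smallest p were *Sp8* (log2 fold change -0.49, adjusted p = 0.000355) and *Zic2* (-1.61).

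Neural progenitor markers summed to 2912 and 2787 CPM in WT, against 2821 and 2815 in *Patz1* KO, and 5 of 13 rose and 4 fell (median -0.10). Among the SoxB1 genes of neural progenitors, *Sox1* rose by 1.03 and *Sox3* by 0.47 in log2, and *Sox2* was not called (log2 fold change -0.20, interval -0.39 to -0.0075, adjusted p = 0.0800). Neuron markers summed to 4597 and 4328 CPM in WT and 6612 and 6251 in *Patz1* KO, with 6 of 10 higher and 1 lower. Of 7 tested oligodendrocyte lineage markers 4 rose and 1 fell, with *Cnp*, a myelin enzyme, at 1.15, and *Pdgfra*, the receptor of precursors that is also found in mesenchyme and endoderm, at -3.96. Endoderm markers summed to 43.7 and 51.9 CPM in WT and 7.83 and 7.81 in *Patz1* KO, with 0 of 8 higher and 6 lower, with *Dab2* at -3.34, and mesenchyme and somite markers to 74.8 and 79.3 against 32.1 and 22.8 CPM, with 5 of 6 lower. Of 6 pancreas markers 5 were at 0 counts in all libraries and *Neurog3*, an endocrine and neural factor, was 1.40 higher on the log2 scale. Eye and forebrain markers summed to at most 1.41 CPM and 0 of 8 passed the filter, and of 4 pluripotency markers 2 were tested and 0 called. *Nkx2-2*, *Nkx6-1* and *Pax6* are also used in the pancreas, and *Pax6* in the eye and forebrain. The part of these other cell types in the results was not tested.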

How the data were processed

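RNA-seq of 4 cervical MN cultures (2 WT, 2 *Patz1* KO) was analysed from the deposited tables, which the authors made as raw counts of reads per gene, 1 file a library. Libraries were stranded and depleted of ribosomal RNA per the labels. The submitters' processing notes name mm10, TopHat2 2.1.1, Bowtie2 2.3.1, featureCounts 1.6.2 and DESeq2. The annotation and the strand setting of the counting are not given in the sources used here. The tables held 23420 genes and 0 rows naming no gene.

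Counts were tested with edgeR 4.0.16 (glmQLFit and glmQLFTest, genotype only, TMM, filterByExpr with a minimum count of 10, Benjamini-Hochberg over 14269 genes) in R 4.3.3 with limma 3.58.1. DESeq2 1.42.0 was an alternative. The SE is the absolute log2 fold change over the square root of F. The study used the DESeq2 Wald test. Common biological variation was 7.71%. Scripts were tested on simulated data. Chi-square between replicates was 9.87 per gene for WT and 22.0 for *Patz1* KO, above sampling noise, so all libraries were kept as separate samples. Each of the 4 totals, 14769104 to 23881522, sets the counting error, and the floor of 3 counts covers counting error only.

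Exon lengths and positions came from GENCODE M21 (GRCm38, the assembly of mm10), and promoters from RefSeq. Levels per length used the union of exons. Of 161 listed symbols 155 were found. Members and lists were chosen with earlier results of these data known. Genes named were the 10 factors, *Patz1*, opposite-strand genes, the factors of each daughter neuron, the signal and its readouts, the SoxB1 genes and from each other list no more than 2 genes, ranked by p. Some genes under this rule are not reported here. The ratios of *Pax6* to *Nkx2-2*, *Pax6* to *Olig2*, *Nkx6-2* to *Olig2* and *Irx3* to *Olig2* were chosen after their values were seen, as were *Inpp5a* and the additional genes plotted with the signal and daughter neurons. Alternatives were other scalings, other filters, the DESeq2 test, robust estimation, a minimum change (glmTreat), a replicate block, thinning to the smallest library and leaving out each library.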

Additional observations from a re-analysis of the deposited data

How the results depend on the processing

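Over 104 pairs of a tested factor and an alternative, 100 kept direction and side of the threshold and 0 reversed, and the counts of 5 higher and 1 lower factors held in 12 of 13 alternatives. Under a minimum absolute log2 fold change of 1, 2 factors were called higher (*Nkx6-2* and *Nkx2-9*), 0 lower, and 718 of all genes, 5.03% of those tested, so *Nkx6-1*, *Nkx2-2*, *Pax6* and *Irx3* were no longer called. Leaving out 1 library, where the lone library of a genotype is assumed to vary like the other genotype, gave 4521 (without WT replicate 2) to 7816 called genes against 6837, and the adjusted p of *Nkx6-1* without WT replicate 2 was 0.0483. The DESeq2 Wald test called 5116 genes. The replicate numbers of the labels did not pair the libraries, with a correlation of deviations of 0.0304 over 14269 genes. With the replicate block, 7363 genes were called and no call of a factor changed. Of 40 levels per exon length under alternatives, 8 moved beyond 1 SD, among them *Pax6* and *Nkx2-2* with the longest transcript. Depth limits *Dbx1* and *Dbx2*, at 3 to 14 counts a library, where a fall is harder to detect than a rise.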
